A study of Arabidopsis thaliana with 8 samples.

Results

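The transcripts described here are those of iqd15 (AT3G49380), IQD30 (AT1G18840) and NET2D (AT2G22560), 3 genes for proteins that tie the cytoskeleton to other parts of the cell. They were chosen by symbol among the probe sets to which the platform annotation gives a single gene, 3 genes of 13350 so named. They were picked with their difference between ttg1 and wild type already known, so that difference is given as a description, with no test. They are set beside the other 13 IQD and 9 NET genes that the arrays measure by name.

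Proteins of the IQD family bind calmodulin, the calcium sensor, through a conserved region of IQ motifs, and many of them lie along cortical microtubules or at the plasma membrane, where they act as scaffolds. NET (NETWORKED) proteins bind actin filaments through an N-terminal domain and link them to membranes, with different members at the plasma membrane, plasmodesmata, endoplasmic reticulum, nuclear envelope or vacuole. Cortical microtubules guide cellulose synthesis, and actin carries vesicle traffic. Both therefore take part in cell shape and wall deposition, also in the seed coat, whose epidermis deposits mucilage and a thick secondary wall.

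Developing seeds of the ttg1 mutant and of wild-type Ler (Landsberg erecta) were compared on Affymetrix ATH1 arrays. The gene named in the mutant's label, TTG1, encodes a protein of WD40 repeats that works with MYB and bHLH transcription factors in seed coat pigment and mucilage, trichomes and root hair pattern. The labels give 4 biological replicates for each genotype, on 1 array each, from seeds at the globular to walking-stick stages of embryo growth taken out of the siliques, and name no treatment. A running suffix from 6 to 9 in the source labels is shared by both genotypes, and its meaning is not given. The labels do not say which mutation the ttg1 plants carry or whether replicates came from separate plants, so the p-values reflect only how far these arrays scatter, which may be technical. The values are on a log2 scale relative to the median of each probe set over the 8 arrays. They show differences between arrays and carry no level, so the 3 genes cannot be ranked by abundance and the tissue cannot be checked by the presence or absence of its markers. Array medians lay between -0.0126 and 0.0279. The widest within-genotype deviation over all probe sets was that of ttg1 replicate 4 (SD 0.245, against 0.115 to 0.184 on the other arrays). TTG1 itself has no single-gene probe set and was not analysed here. Whole seeds were measured, so fewer cells of a type and less RNA per cell cannot be told apart. With 4 arrays per genotype, precision is limited throughout.

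All 3 transcripts were lower in ttg1 than in Ler, iqd15 by the most and IQD30 by the least. The transcript of iqd15 was measured in ttg1 replicates 1 to 4 at -0.31, -0.62, -0.69 and -0.78, while Ler replicates 1 to 4 had 0.56, 0.31, 0.36 and 0.41. All ttg1 arrays lay below all Ler arrays, with a gap of 0.63 between the closest pair. Averaged, ttg1 had -0.60 ± 0.20 and Ler 0.41 ± 0.10 (SD, n = 4), a log2 difference of -1.01 ± 0.11 (limma's moderated SE), which is 2.01-fold lower. Over the 8 fits that each left out 1 array the difference lay between -1.11 and -0.95.

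IQD30 changed less but was the tightest of the 3 within ttg1. Its values were -0.20, -0.15, -0.21 and -0.30 in ttg1 and 0.41, 0.23, 0.16 and 0.15 in Ler replicates 1 to 4. Again the groups did not overlap, and the closest arrays were 0.30 apart. The means of -0.21 ± 0.06 and 0.24 ± 0.12 (SD, n = 4) gave a difference of -0.45 ± 0.09 (SE), or 1.37-fold lower in ttg1. Leaving out 1 array at a time gave differences between -0.48 and -0.39.

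NET2D, of the NET2 subfamily known from the actin of pollen tubes, varied most within both genotypes. Its ttg1 replicates 1 to 4 were at -0.30, -0.000587, -0.39 and -0.85, and those of Ler at 0.56, 0.56, 0.35 and 0.000587. Replicate 4 was the lowest array of each genotype, and ttg1 replicate 2 and Ler replicate 4 were almost equal, 0.00117 apart. Averaged, ttg1 had -0.39 ± 0.35 and Ler 0.37 ± 0.27 (SD, n = 4), a difference of -0.75 ± 0.18 (SE), or 1.69-fold lower. It lay between -0.88 and -0.60 when 1 array was left out.

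**Figure D1:**
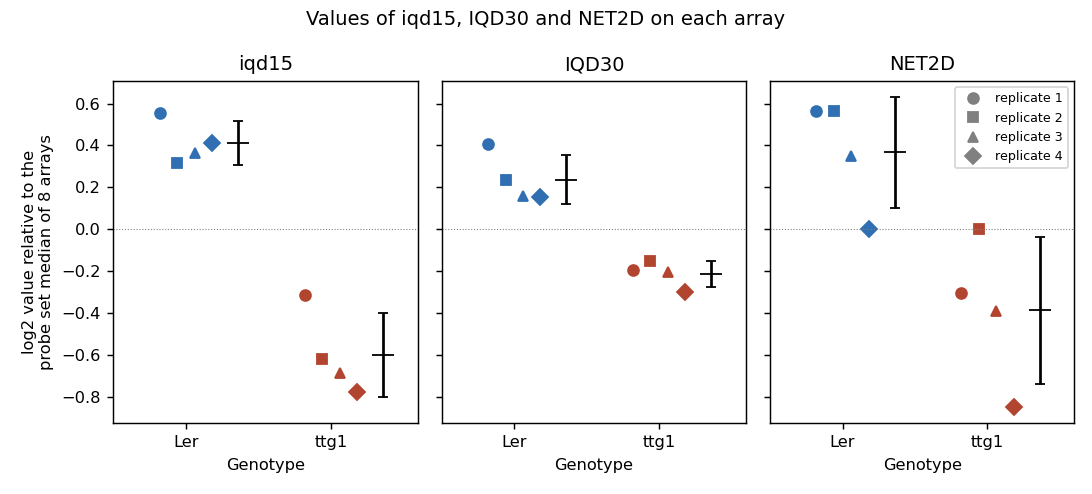
Each point is 1 array, with the genotype on the x axis and the log2 value relative to the probe set's median over the 8 arrays on the y axis; black bars are mean ± SD (n = 4). The groups are 0.63 apart at their closest in iqd15 and 0.30 in IQD30, while in NET2D they almost touch at 0.

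Over all 22746 probe sets tested with limma, 900 were lower in ttg1 at a Benjamini-Hochberg adjusted p under 0.05, which is 3.96%, and 400 were higher, 1.76%. All 3 genes were among those lower, but their choice rested on this comparison, so nothing is read from that count. Of the 900 lower probe sets, 258 fell further than iqd15, 401 further than NET2D and 755 further than IQD30. Without ttg1 replicates 1 and 4 together the differences were -1.06 for iqd15, -0.42 for IQD30 and -0.56 for NET2D. Groups without overlap, lower in ttg1, were found in 8.33% of all probe sets. Since each probe set was centred on its median, the inner arrays of any gene whose groups do not overlap lie at equal distances on both sides of 0.

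The ranges within a genotype set the 3 genes apart from each other. The range over 4 arrays was 0.46 in ttg1 and 0.24 in Ler for iqd15, 0.15 and 0.25 for IQD30, and 0.85 and 0.56 for NET2D. The median over all probe sets was 0.37 in ttg1 and 0.27 in Ler. NET2D was thus more variable than 94.0% of probe sets in ttg1 and 92.0% in Ler, and IQD30 more variable than 8.12% in ttg1. Deviations from the genotype means of IQD30 and NET2D had a Pearson r of 0.735, those of iqd15 and IQD30 of 0.523 and those of iqd15 and NET2D of 0.369. These values are over 8 arrays that all genes share, and are a description only.

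None of the other 22 IQD and NET genes passed the test between ttg1 and Ler in limma, where 5.72% of all probe sets were called, and 5 of them had an unadjusted p under 0.05, a share of 22.7% beside 23.0% of all probe sets. The 13 other IQD genes had a median log2 difference of 0.08 (from -0.38 to 0.34), beside 0.03 over all probe sets tested; 9 were above 0 and 4 below. This median was -0.004 with array weights and -0.09 without ttg1 replicates 1 and 4 together, so its sign was not settled. No other IQD gene had groups without overlap in either direction, where 8.33% of all probe sets did so lower in ttg1 and 6.51% higher. The 9 other NET genes had a median of -0.14 (from -0.75 to 0.13), with 6 below 0, but without ttg1 replicate 3 the median was 0.03. Groups without overlap were found in 3 of them (NET3A, NET1D and NET1B), all lower in ttg1.

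Among the IQD genes the value nearest to IQD30 was that of iqd32, which differed by -0.38 ± 0.12 (SE; limma's adjusted p was 0.102). Its values were -0.07, 0.02, -0.46 and -0.28 in ttg1 and 0.38, 0.18, 0.21 and -0.02 in Ler, so the groups overlapped. IQD19 (-0.16 ± 0.10), IQD16 (-0.10 ± 0.10), a protein linked to the microtubule-severing enzyme katanin, and IQD22 (-0.06 ± 0.16) were also on the lower side. Values above 0 were found for IQD27 (0.03 ± 0.11), iqd33 (0.05 ± 0.10), IQD28 (0.08 ± 0.14), IQD18 (0.12 ± 0.16), IQD23 (0.15 ± 0.14), IQD31 (0.17 ± 0.09) and IQD24 (0.25 ± 0.11). The signs of IQD22, IQD27 and iqd33 changed when certain single arrays were left out, those of IQD27 (-0.08), iqd33 (-0.02) and IQD18 (-0.004) with array weights, and that of IQD27 also with quantile normalization (-0.01). Without ttg1 replicates 1 and 4 together, IQD23 (-0.09) and iqd21 (-0.10) were also below 0. iqd21 (0.33 ± 0.30) and IQD26 (0.34 ± 0.18) had the highest differences, and both were highest in ttg1 replicate 4, at 1.06 and 0.68.

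In the NET family the difference of NET3A, known from the nuclear envelope, was as large as that of NET2D. NET3A had values of -0.32, -0.11, -0.06 and -0.77 in ttg1 and of 0.95, 0.63, 0.06 and 0.08 in Ler replicates 1 to 4. The groups did not overlap, but Ler replicates 3 and 4 lay close to ttg1 replicates 2 and 3. The difference of -0.75 ± 0.22 (SE) had an adjusted p of 0.0718 in limma. It was 0.0318 with quantile normalization, 0.0215 with the replicate number as a block and from 0.0580 to 0.196 when 1 array was left out. With the seed filling index described below as a covariate it was 0.0052.

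NET1C, with the smallest adjusted p of the 22 (0.0547 in limma), differed by -0.42 ± 0.11, and its groups overlapped. It passed in 2 of the 8 fits that left out 1 array, without Ler replicate 4 (0.0268) and without ttg1 replicate 1 (0.0402). Other settings in which it passed were array weights (0.0287), quantile normalization (0.0409) and the replicate number as a block (0.0242). With the seed filling index described below as a covariate its adjusted p was 0.0081 in limma. NET1D (-0.32 ± 0.17) rested on Ler replicate 1, which was at 0.82 while the other Ler arrays lay between 0.01 and 0.08. NET1B had a smaller but even difference of -0.26 ± 0.08 (adjusted p 0.0822 in limma), from -0.12, -0.08, -0.17 and -0.06 in ttg1 against 0.23, 0.22, 0.06 and 0.08 in Ler. NET1A, known from plasmodesmata, differed by -0.14 ± 0.20, and its sign changed without ttg1 replicate 3 (0.07). NET4B, a member found at the vacuole, was at -0.01 ± 0.17, with either sign when single arrays were left out. NET2C, of the same subfamily as NET2D, had 0.07 ± 0.10, with a 95% interval from -0.15 to 0.29 and a value of -0.02 without ttg1 replicate 1. NET3B and NET3C, both at the endoplasmic reticulum, had 0.13 ± 0.09 and 0.11 ± 0.11.

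**Figure D2:**
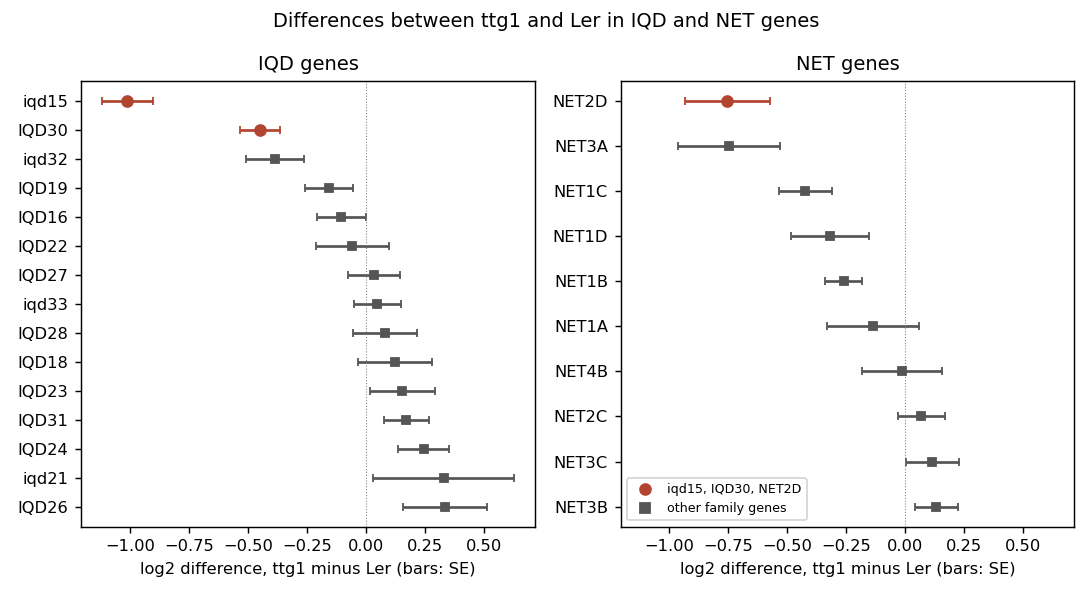
The x axis gives the log2 difference ttg1 minus Ler with limma's moderated SE as bars, and each line is 1 gene of the IQD family (left) or the NET family (right). iqd15 lies at -1.01, then IQD30 at -0.45 and iqd32 at -0.38, while NET2D and NET3A both lie at -0.75.

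**Figure D3:**
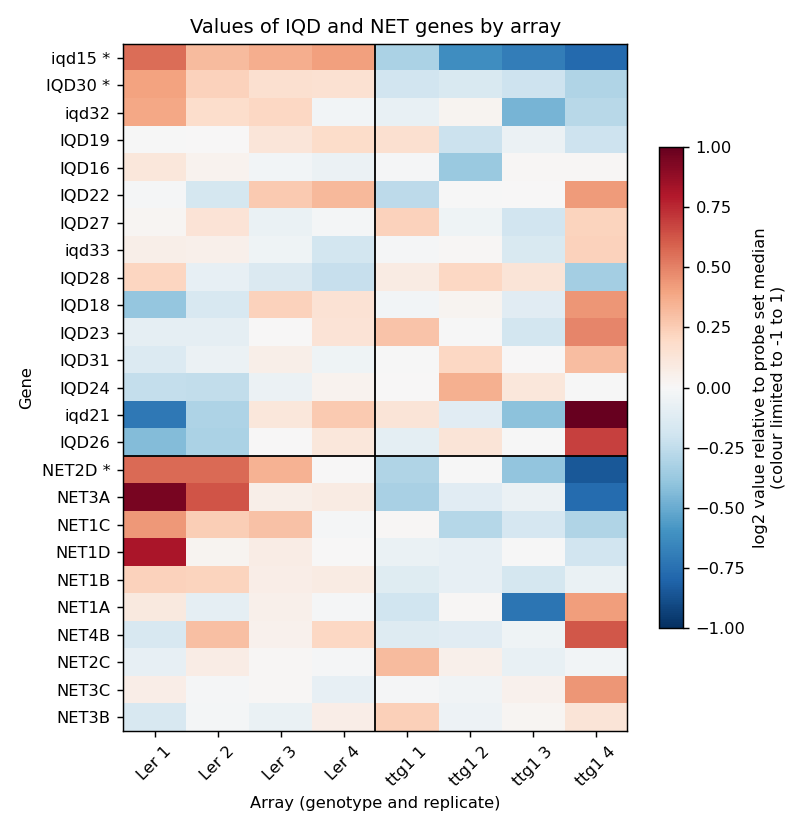
Colour, which ends at -1 and 1, gives the log2 value relative to the probe set's median for the 25 IQD and NET genes (rows; stars mark iqd15, IQD30 and NET2D) on each array (columns). The row of iqd15 is positive on all Ler and negative on all ttg1 arrays, and iqd21 reaches 1.06 on ttg1 replicate 4.

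Seed filling gave a second view of the same arrays that does not use the difference between genotypes. PAP85, a vicilin-like storage protein, and OLEO3, an oleosin of oil bodies, rise as seeds mature, and their mean was taken as an index of seed filling after these data were seen. The 2 genes were not scaled to each other. Deviations from the genotype means ran from -1.33 to 1.99 for PAP85 and from -0.59 to 0.60 for OLEO3, so the index mostly follows PAP85. For ttg1 replicates 1 to 4 the index was -0.70, 0.13, -0.15 and 1.43, and for those of Ler -0.77, -0.24, 0.34 and 1.38, with means of 0.179 in ttg1 and 0.177 in Ler. Replicate 4 was highest in both genotypes, and the genotypes had nearly the same mean.

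None of the 3 genes passed the test of a slope on this index with genotype as a term in limma. Of all probe sets 1.95% passed as rising and 1.2% as falling. NET2D alone had an unadjusted p under 0.05 in limma (0.00367), as did 20.6% of all probe sets. The slope of NET2D was -0.28 ± 0.08 per log2 unit of the index (SE, adjusted p 0.0693 in limma). Those of iqd15 (-0.11 ± 0.06, adjusted p 0.349 in limma) and IQD30 (-0.08 ± 0.05, adjusted p 0.400 in limma) were smaller. With OLEO3 alone as the index none of the 3 genes passed either (limma adjusted p 0.113 for NET2D, 0.267 for iqd15 and 0.312 for IQD30). The slope of NET2D was -0.02 ± 0.16 without both replicates 4, so it rests on those arrays, and it passed the test without ttg1 replicate 2 (adjusted p 0.0246 in limma). With the index as a covariate the differences between genotypes were -1.01 for iqd15, -0.45 for IQD30 and -0.75 for NET2D. The index had nearly the same mean in ttg1 (0.179) and Ler (0.177), so this adjustment could hardly change them.

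Other IQD genes rose with the index in limma. Of the 13, 3 rose (iqd21, IQD26 and IQD22) and none fell, beside 1.95% rising and 1.2% falling among all probe sets; 5 of the 13 had an unadjusted p under 0.05 (38.5%, beside 20.6% of all probe sets), the others being IQD18 (0.25 ± 0.06) and, with a negative slope, IQD28 (-0.20 ± 0.06). The slope was 0.50 ± 0.11 for iqd21 (adjusted p 0.0373), 0.33 ± 0.05 for IQD26 (adjusted p 0.0147) and 0.26 ± 0.06 for IQD22 (adjusted p 0.0433). With OLEO3 alone as the index these genes also passed, at adjusted p-values of 0.0214, 0.0084 and 0.0432 in limma. Without both replicates 4 none of the 3 passed, with slopes of 0.33, 0.35 and 0.28 and adjusted p-values from 0.867 to 0.971 in limma, and 5 probe sets in all were called rising and 0 falling. No single omitted array left all 3 calls in place except ttg1 replicate 2, and adjusted p-values reached 0.462 for iqd21, 0.255 for IQD26 and 0.434 for IQD22, each without ttg1 replicate 4. Of the 9 other NET genes none passed; 3 had an unadjusted p under 0.05, beside 20.6% of all probe sets, and they pointed both ways. These were NET3A (-0.34 ± 0.09, adjusted p 0.0544 in limma), NET1C (-0.16 ± 0.05) and NET4B (0.24 ± 0.08).

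**Figure D4:**
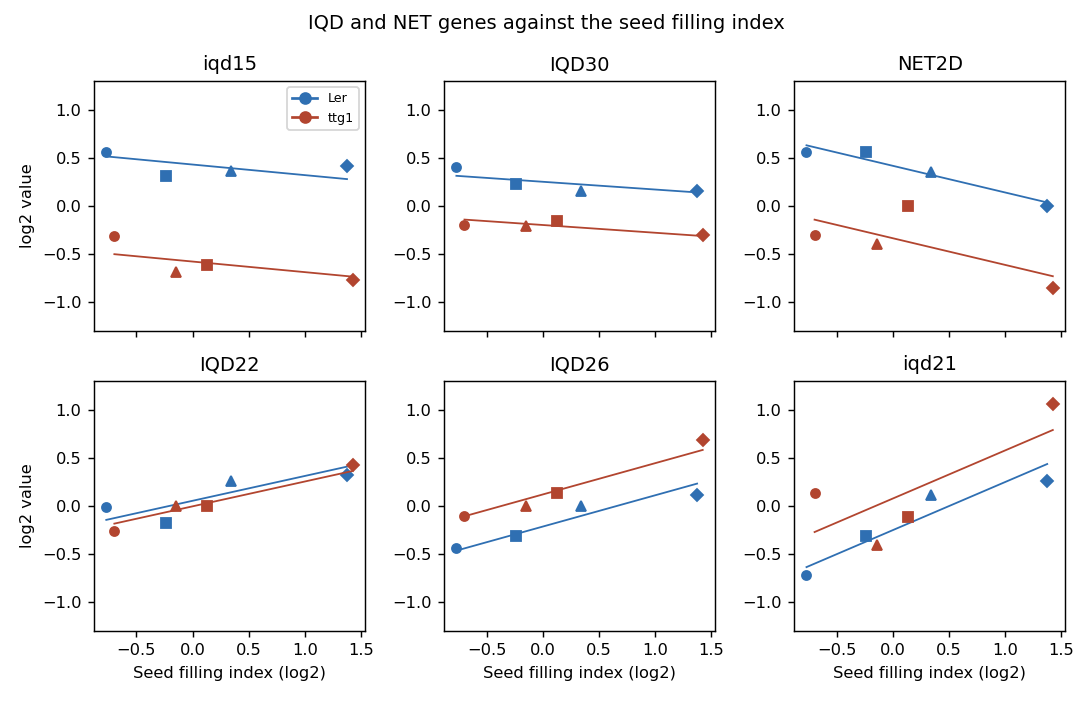
The x axis is the seed filling index (mean log2 value of PAP85 and OLEO3) and the y axis the log2 value of the gene; points are arrays (circle, square, triangle and diamond for replicates 1 to 4) and lines the common slope fitted within genotypes. The line slopes down for NET2D (-0.28) and up for iqd21 (0.50), IQD26 (0.33) and IQD22 (0.26), with replicate 4 at the right end in both genotypes.

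The wider cytoskeleton was described with lists of genes by name, 50 genes in all with calmodulin-like genes. Of these, 1 was higher and 2 were lower in limma, beside 5.72% of all probe sets in either direction, and the median difference was -0.01. The gene called higher was TRM82, which matched by its letters only and is known from tRNA methylation. Of 7 tubulin genes, the subunits of microtubules, none passed (median -0.08), and 2 had an unadjusted p under 0.05, where 23.0% of all probe sets did. TUB1 had -0.69 ± 0.18 (adjusted p 0.0513 in limma), from -0.53, -0.45, -0.00269 and -0.73 in ttg1 against 0.70, 0.32, 0.04 and 0.00269 in Ler. As in NET2D the groups almost touched at 0. TUB1 passed without ttg1 replicate 3 (0.0210) and without Ler replicate 4 (0.0491), and with robust variances (0.0496). TUB9 had -0.23 ± 0.10.

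Of 23 genes listed as microtubule-associated, 1 was higher and 1 lower (median -0.07), where 1.76% of all probe sets were higher and 3.96% lower. TON1B, a TONNEAU1 protein that organises cortical microtubules and the preprophase band, was 1.40-fold lower in ttg1 (-0.49 ± 0.11, adjusted p 0.0230 in limma). Its arrays lay between -0.50 and -0.11 in ttg1 and between 0.11 and 0.40 in Ler. The call was lost in 4 of the 8 fits that left out 1 array, without Ler replicate 1, 2 or 3 and without ttg1 replicate 3 (adjusted p 0.0544 to 0.0657), and without ttg1 replicates 1 and 4 together (0.0752). TRM82 was 1.44-fold higher (0.53 ± 0.10, adjusted p 0.0107 in limma). It kept the call in all 8 fits that left out 1 array, but not without ttg1 replicates 1 and 4 together (adjusted p 0.0504 in limma). It shares its letters with the TONNEAU1-recruiting proteins but is known as a subunit of a tRNA methyltransferase. Another gene of the list, AT3G23090, singled out after its values were seen, had -0.71 ± 0.27 (adjusted p 0.149 in limma) with no overlap between the groups. It passed with a block for replicate number (0.0277) and with the filling index as a covariate (0.00836). Of the 23 genes 13 were below 0 and 10 above.

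Of 9 actin and actin-binding genes, 1 was lower (median -0.13), where 3.96% of all probe sets were called lower. An unadjusted p under 0.05 in limma was found for 2, beside 23.0% of all probe sets. BRK1, a small subunit of the SCAR/WAVE complex that activates actin branching, was 1.35-fold lower (-0.43 ± 0.10, adjusted p 0.0322 in limma). Its Ler arrays were between 0.14 and 0.20 and its ttg1 arrays between -0.55 and -0.14, with replicate 4 the lowest. It lost the call without any 1 of the Ler replicates and without ttg1 replicate 2 (adjusted p 0.0543 to 0.106). XIJ, a myosin motor, had 0.52 ± 0.16 (adjusted p 0.0793), and passed without ttg1 replicate 2 (0.0424) and with the replicate number as a block (0.0105). Its groups overlapped. PIR121 was the only gene found for the list of membrane contact proteins and NET partners, and is itself a SCAR/WAVE subunit. It had 0.30 ± 0.09 (adjusted p 0.0710 in limma), with no overlap between the groups, and passed without ttg1 replicate 1 (0.0307) and with array weights (0.0292).

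Of the list of calmodulins and calmodulin-like proteins, 8 calmodulin-like genes were measured by name and no calmodulin. Of these 8 none passed in limma, where 5.72% of all probe sets did. None had an unadjusted p under 0.05, beside 23.0% of all probe sets. The median of the 8 genes was 0.003, with AT1G76640 at 0.16 ± 0.09 and CML37 at 0.08 ± 0.09. The list of the cellulose synthase machinery had 2 genes by name, COB with 0.24 ± 0.12 and GH9A3, a relative of the KORRIGAN endoglucanase, with -0.24 ± 0.15, and neither had an unadjusted p under 0.05. No gene of the list of kinesin light chain and ROP proteins was measured by name, and it was not analysed here.

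Tissue markers, of the seed and of other organs, were few by name, and their part in the results above was not tested. RCA and LHCB4.1, listed for leaf, had differences of 0.17 and 0.43. Their mean lay between -0.28 and 0.73 in ttg1 and between -0.25 and -0.005 in Ler, highest in ttg1 replicate 4. That array also had the highest filling index (1.43), and NET2D, iqd15 and IQD30 were all lowest there. In Ler replicate 4, with an index of 1.38, NET2D (0.000587) and IQD30 (0.15) were the lowest of Ler, but iqd15 was not. It was at 0.41 there and lowest in Ler replicate 2, at 0.31. For the silique wall genes YAB3 (0.67) and ALC (-0.47) the mean lay between -0.30 and 0.20 in ttg1 and between -0.23 and 0.10 in Ler. For 4 endosperm genes, among them IKU2 (0.23) and AGL28 (0.09), it lay between -0.06 and 0.20 in ttg1 and between -0.05 and 0.004 in Ler. None of these 8 genes passed in limma, where 5.72% of all probe sets did. Both silique wall genes had an unadjusted p under 0.05, as did 23.0% of all probe sets. The groups of YAB3 did not overlap. It passed with a block for replicate number (0.0227) and with the filling index as a covariate (0.00352), as did LHCB4.1 (0.0366 and 0.0208). BAN, the anthocyanidin reductase of the seed coat, was the only seed coat marker by name, and fell with a log2 difference of -6.43 ± 0.12 (adjusted p 8.14e-11 in limma). As TTG1 itself works in seed coat pigment, this fall does not measure how much seed coat the samples held. Embryo and pollen lists had no gene by name. That limits what can be said of NET2D, whose subfamily is known from pollen.

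By the rule of the highest Pearson r over the 8 arrays, the genes most like iqd15 were JMT, a jasmonate methyltransferase (r 0.995), AT4G01575 (0.988), SETH3 (0.988), AT1G77260 (0.986) and GSTU26, a glutathione transferase (0.984). Those most like IQD30 were AT1G06550 (0.990), AT2G42330 (0.989), the beta-glucosidase gene BGLU45 (0.988), AT4G14780 (0.987) and AT1G65010 (0.986). For NET2D they were AT5G44320 (0.985), AT5G37930 (0.985), AT5G54400 (0.982), AT5G13240 (0.982) and SAG101, of plant immunity (0.981). Among the first 2 sets all 10 genes were lower in ttg1, with differences from -2.20 (GSTU26) to -0.71 (AT4G01575), as the measure favours genes that differ between the genotypes. The set of NET2D had smaller differences, from -0.66 (AT5G54400) to -0.26 (AT5G37930), and 1 of the 5, SAG101, passed the test (-0.49 ± 0.12, adjusted p 0.0450 in limma). For deviations from the genotype means r was 0.945 between iqd15 and JMT, 0.913 between IQD30 and AT1G06550 and 0.968 between NET2D and AT5G44320. These r values describe 8 shared arrays, were picked as the highest among 13513 single-gene probe sets, and have no p.

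The nearest neighbours of the 3 genes were read from the gene order of the RefSeq assembly TAIR10.1, 5 genes on each side, a set chosen after the values were seen. Beside iqd15, 4 of 10 neighbours were measured by name and 1 passed in limma, where 3.96% of all probe sets passed as lower. This was AT3G49370, the gene next to iqd15, with a difference of -0.85 ± 0.12 (adjusted p 0.00140). AT3G49340 (-0.21 ± 0.09), AT3G49350 (-0.15 ± 0.15) and AT3G49400 (0.02 ± 0.10) did not pass. None of the 3 measured neighbours of IQD30 passed, among them the next gene AT1G18850 (0.12 ± 0.08), and none of the 5 of NET2D, whose differences lay between -0.07 and 0.25.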

How the data were processed

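Each sample of seed RNA was hybridised to 1 ATH1 array. The deposited log2 values were made by the authors with RMA, per the submitters' processing notes, with no version given. Medians of single probe sets are 0 (within 5e-07), so values had been centred on them, a step the sources used here do not describe; the base and direction of the scale were taken from RMA and not tested. Of 22810 probe sets, 64 controls were left out. The platform annotation gives 1 gene for 13513 probe sets, several for 503 and none for 8730; 13436 matched RefSeq (TAIR10.1). Groups and replicate numbers came from the sample titles.

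The difference ttg1 minus Ler was fitted with limma 3.58.1 in R 4.3.3 (lmFit, eBayes, two-sided, no covariates) and p-values were adjusted by Benjamini-Hochberg over 22746 probe sets, with a threshold of 0.05. The slope on the seed filling index was a second fit with genotype as a term, added after seeing the data. In simulated data of the same 22746 probe sets limma called 27 of 50 shifted by a log2 difference of 0.5 and 49 of 50 at 1. It called all 50 at 2 and at 4, and 20 of 22546 without a shift. The simulated noise was normal, independent and equal on all arrays, so these counts need not hold for the real arrays.

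The genes, lists and tests were chosen with earlier results of these data known. Named were the 3 genes, all other IQD and NET genes, in each list at most 4 genes that passed or, where fewer than 2 passed, the 2 with the smallest adjusted p, and 5 most alike genes each. Lists were matched by gene name pattern. Alternatives were the replicate block, quantile normalization, array centring, robust eBayes, array weights, no moderated variances, a threshold of 0.01, RefSeq synonyms, averages per gene, omission of arrays and, added later, the filling index as a covariate and the omission of ttg1 replicates 1 and 4 together. Same-numbered arrays did not deviate together in every pair (correlations 0.0769, 0.0318, -0.313 and, for replicates 4, 0.482), so the numbers were not taken as pairs. No 2 arrays were alike (smallest SD of a difference 0.195). Sequences of these genes were not used here.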

Additional observations from a re-analysis of the deposited data

Results flagged for a closer look

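In 7 of 90 groups of 4 arrays examined 1 array stood apart from the rest by Dixon's criterion, which chance meets in about 1 of 20 groups. None of these was in iqd15, IQD30 or NET2D. In ttg1 replicate 4 the values of NET4B (0.62, others -0.13 to -0.04), NET3C (0.45, others -0.03 to 0.04) and YAB3 (0.98, others 0.04 to 0.17) stood above the other ttg1 arrays. In Ler replicate 1 NET1D was at 0.82 (others 0.01 to 0.08) and TON1B at 0.40 (others 0.11 to 0.14). IQD16 was at -0.37 in ttg1 replicate 2 (others -0.01 to 0.01), and COB, of the cellulose synthase list, at 0.028 in Ler replicate 3 (others -0.04 to -0.03).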

How the results depend on the processing

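The differences of iqd15, IQD30 and NET2D were -1.11 to -0.95, -0.48 to -0.39 and -0.88 to -0.60 when 1 array was left out. They were -0.95, -0.44 and -0.64 with quantile normalization. No alternative run turned their sign. As the groups of these genes do not overlap, leaving out or weighting arrays could not turn it, so nothing is read from that. A block for replicate number or robust variances cannot move a difference of means in this balanced design. The differences were therefore the same there (-1.01, -0.45 and -0.75). With the block 687 probe sets were called higher and 1283 lower. The block added NET1C and NET3A among the family genes (2 lower, none without the block) and 1 tubulin (TUB1). Also added were AT3G23090 of the microtubule-associated list (3 in all), a second actin gene (2 in all, with XIJ) and the markers YAB3 and LHCB4.1. Same-numbered arrays did not deviate together in every pair, so the numbers were not taken as pairs; replicates 4 did (0.482), and they had the highest filling index in both genotypes. Of all probe sets, 400 were called higher and 900 lower in the main fit. The counts were 786 and 1151 with array weights and 583 and 1201 with quantile normalization. Without moderated variances they were 168 and 409, and at a threshold of 0.01 they were 112 and 414. With the filling index as a covariate they were 1262 and 1743. When 1 array was left out they were 164 to 401 and 509 to 854.

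Among the 22 family genes 2 were called lower with array weights (NET1B and NET1C), 2 with quantile normalization (NET1C and NET3A), 3 with the covariate (NET1C, NET3A and iqd32, beside 1 higher, IQD26), and 0 to 1 when 1 array was left out. The median of the other IQD genes was -0.0035 with array weights, -0.09 without ttg1 replicates 1 and 4 together and 0.003 to 0.12 without single arrays; that of the other NET genes was -0.21 with array weights, -0.28 without ttg1 replicates 1 and 4, and -0.28 to 0.028 without single arrays. TUB1 made 1 called tubulin with quantile normalization, with robust variances and with the covariate (0 to 1 without single arrays). The microtubule-associated list, TRM82 included, had 0 calls without ttg1 replicates 1 and 4 and 1 to 2 without single arrays. It had 3 with the block or the covariate, against 2 otherwise reported. The actin list had 2 with the covariate and 0 to 1 without single arrays. The membrane contact list had 1 with array weights or the covariate and 0 to 1 without single arrays.

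These differences turned sign: without ttg1 replicates 1 and 4 IQD23 (-0.086), iqd33 (-0.043), NET2C (-0.011), iqd21 (-0.099), IQD18 (-0.0031), IQD27 (-0.14) and OLEO3 (-0.084); with array weights iqd33 (-0.024), IQD18 (-0.0035), IQD27 (-0.075) and OLEO3 (-0.14); with quantile normalization IQD27 (-0.012), OLEO3 (-0.088) and PAP85 (0.32); with arrays centred OLEO3 (-0.0019). Without single arrays the ranges that crossed 0 were -0.022 to 0.11 for iqd33, -0.016 to 0.12 for NET2C, -0.19 to 0.044 for IQD22, -0.32 to 0.067 for NET1A, -0.025 to 0.12 for IQD27, -0.19 to 0.058 for NET4B, -0.19 to 0.15 for OLEO3, -0.63 to 0.66 for PAP85 and -0.013 to 0.33 for RCA.

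For the slope on the index 443 probe sets were called rising and 273 falling, against 5 and 0 without both replicates 4, 635 and 396 with OLEO3 alone, and 26 to 526 and 3 to 450 without single arrays. The lowest counts (26 and 3) came without ttg1 replicate 4. The cause of these changes was not tested. The covariate, the joint omissions and all slope alternatives were chosen after seeing the data. Leaving out dim probe sets was not run, since centred values carry no level, and signal over background is unknown. RefSeq synonyms added no family gene.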
